A study of Mus musculus with 3 samples.

Results

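The 3 TGF-β ligands of the mouse (*Tgfb1*, *Tgfb2* and *Tgfb3*) and the 4 latent TGF-β binding proteins (*Ltbp1*, *Ltbp2*, *Ltbp3* and *Ltbp4*) were followed through the ascending aorta of wild-type and fibrillin-1 deficient mice. They are 7 of the 32285 genes counted, were chosen by name as the whole of both families, and were found in each library. Single-cell suspensions from male mice at P45, backcrossed to C57BL/6J, were run as 3 droplet libraries. The WT library pooled 3 wild-type mice and the mgR library 3 *Fbn1* mgR/mgR mice without losartan (the labels do not say whether they drank vehicle), and the mgR-LOS library pooled 4 *Fbn1* mgR/mgR mice that drank 0.6 g/L losartan from P16. The mgR allele is a germline hypomorphic allele that makes too little of an otherwise normal fibrillin-1, so it acts in every cell, and losartan blocks the angiotensin II type 1 receptor. Each condition was 1 library of pooled mice. The spread between mice therefore cannot be measured, no test between conditions was made, and every interval given is a 95% interval of counting error only.

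A TGF-β ligand leaves the cell bound to its own cleaved propeptide, which keeps it silent, and the propeptide is usually joined to a latent TGF-β binding protein that tethers the complex to microfibrils of fibrillin and to fibronectin. LTBP-1 and LTBP-3 carry all ligands, LTBP-4 carries TGF-β1 and is a partner of the fibulins in building elastic fibers, and LTBP-2 binds fibrillin-1 but carries no ligand. Integrins, proteases or thrombospondin-1 then free the ligand from the store. In the aortic wall this store lies in the elastic media that SMCs make, and fibrillin-1 deficiency is the defect of Marfan syndrome.

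The genes are spread over 5 chromosomes of GRCm38 by the GENCODE annotation. *Tgfb1* (ENSMUSG00000002603) occupies chromosome 7 from 25687002 to 25705077 on the plus strand, and *Ltbp4* (ENSMUSG00000040488) lies on the minus strand of the same chromosome from 27305136 to 27337692. Chromosome 12 carries *Ltbp2* (ENSMUSG00000002020, 84783212 to 84876532) and *Tgfb3* (ENSMUSG00000021253, 86056745 to 86079041), both on the minus strand. *Tgfb2* (ENSMUSG00000039239) is on the minus strand of chromosome 1 from 186622792 to 186705989, *Ltbp1* (ENSMUSG00000001870) on the plus strand of chromosome 17 from 75005568 to 75392512 and *Ltbp3* (ENSMUSG00000024940) on the plus strand of chromosome 19 from 5740904 to 5758532. The last 2000 bases of *Tgfb3* overlap *Ttll5*, on the opposite strand. The counts read the 3′ end of transcripts, so they do not separate the long and short forms of *Ltbp1* that begin at different starts.

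The promoters of 6 of the 7 genes are in the RefSeq table for GRCm38.p6, and *Tgfb3* has no entry. Those of the ligands *Tgfb1* and *Tgfb2*, whose levels were ordered oppositely across the cell types, and of *Ltbp1* and *Ltbp2*, the binding proteins that were 1.5-fold apart between libraries in fibroblasts, are shown as the bases just before the start of transcription, 5′ to 3′ on the strand of the gene. Capitals mark a TATA motif (TATAAA), an E-box (CACGTG), a cAMP response element (TGACGTCA) or a GC box (GGGCGG), on either strand. For *Ltbp2* the bases that lie inside the GENCODE gene were left out.
Tgfb1 chr7:25686752-25687001, plus strand: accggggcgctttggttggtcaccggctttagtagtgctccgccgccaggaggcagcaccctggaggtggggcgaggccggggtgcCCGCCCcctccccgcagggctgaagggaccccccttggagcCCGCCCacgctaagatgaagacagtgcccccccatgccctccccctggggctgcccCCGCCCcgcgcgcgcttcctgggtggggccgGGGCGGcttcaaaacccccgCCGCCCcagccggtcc
Tgfb2 chr1:186705990-186706239, minus strand: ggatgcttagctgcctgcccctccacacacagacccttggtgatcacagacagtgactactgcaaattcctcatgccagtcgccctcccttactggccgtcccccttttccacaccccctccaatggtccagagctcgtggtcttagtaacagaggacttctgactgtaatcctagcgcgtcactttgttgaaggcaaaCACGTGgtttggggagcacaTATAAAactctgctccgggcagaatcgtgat
Ltbp1 chr17:75005279-75005528, plus strand: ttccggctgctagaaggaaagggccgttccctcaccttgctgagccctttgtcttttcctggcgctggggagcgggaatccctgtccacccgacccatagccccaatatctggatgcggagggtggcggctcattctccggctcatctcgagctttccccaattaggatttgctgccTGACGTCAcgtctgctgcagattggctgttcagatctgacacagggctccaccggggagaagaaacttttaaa
Ltbp2 chr12:84876533-84876741, minus strand: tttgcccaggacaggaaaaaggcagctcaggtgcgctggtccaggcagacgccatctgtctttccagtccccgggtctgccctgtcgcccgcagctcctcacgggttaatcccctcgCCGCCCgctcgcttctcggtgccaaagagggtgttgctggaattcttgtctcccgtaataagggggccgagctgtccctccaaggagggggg

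The *Tgfb1* window held 5 GC boxes and was 75.2% G or C, against a median of 52.4% over all 32851 windows of 250 bases, of which 32.7% held a GC box. The *Tgfb2* window, 53.6% G or C, held a TATA motif that begins 31 bases before the start and an E-box that begins 51 bases before it. These motifs were present in 12.4% and 6.02% of all windows. The *Ltbp1* window shown held the response element, found in 1.55% of windows. Another *Ltbp1* window, at chr17:75178531-75178780, held none of the marked motifs. A match of letters is a description of the sequence and shows no bound factor.

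The libraries held 7858 to 14663 barcodes and 83338726 to 123956320 UMIs, and 5361 (WT), 8076 (mgR) and 12721 (mgR-LOS) barcodes passed the filter, with a median of 13636, 12410.5 and 8334 UMIs. *Fbn1* was at 361 CPM (counts per 1e6 UMIs of the population) over the WT barcodes, 150.1 CPM in mgR and 117 CPM in mgR-LOS, lower in both mutant libraries as labelled. Barcodes were assigned by panels of 6 marker genes to an SMC gate (3726, 3446 and 8327 barcodes in WT, mgR and mgR-LOS), a fibroblast gate (1297, 2326 and 3037), an EC gate (108, 218 and 178) and an immune gate (127, 1629 and 697). Libraries shared 22 to 46 barcode sequences, under 0.5% of each. A second set of markers was not used for the gates. Its SMC panel stood at 2.37% to 3.11% of its SMC level in the immune gate, 5.93% to 9.16% in the fibroblast gate and 5.77% to 8.48% in the EC gate. This gives the level of these markers outside the SMC gate. Whether that RNA came from SMCs or from the other cells themselves was not tested. The second fibroblast panel in the SMC gate stood at 25.1%, 25.2% and 17.2% of its fibroblast level in WT, mgR and mgR-LOS. The part of RNA from other cells in the EC and SMC levels below was not tested.

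*Tgfb1*, the ligand most widely made by blood and vessel cells, was ordered immune cells, ECs, fibroblasts and SMCs from high to low in all 3 libraries, with no overlap between neighboring intervals. Immune cells of the WT library had 189 CPM (164 to 216), those of mgR 162 (155 to 169) and those of mgR-LOS 194 (182 to 207). The SMC level was 26.6 CPM in WT (25.2 to 28.0), 37.4 in mgR (35.7 to 39.1) and 33.5 in mgR-LOS (32.2 to 34.8). The immune level was thus 7.11 times the SMC level in WT and 4.34 times in mgR. SMCs of mgR had 1.41 times the WT level (1.31 to 1.51), and the ratio of mgR-LOS over mgR was 0.896 (0.844 to 0.952), so losartan SMCs lay between the others. The mgR ratio was 1.20 with barcodes thinned to equal depth and 1.28 with second panels. Immune markers in the SMC gate also differed between libraries, with all 6 genes of the gate panel detected in each and a summed level of 1.54 CPM in WT, 33.4 in mgR and 27.3 in mgR-LOS, and of 12.5, 73.9 and 61.0 CPM for the second panel. Their part in the *Tgfb1* ratio was not tested. ECs carried 102, 120 and 151 CPM and fibroblasts 56.3, 49.9 and 44.0 CPM in WT, mgR and mgR-LOS. Between mgR and WT the fibroblast level differed by a ratio of 0.886 (0.812 to 0.966), a direction that turned when barcodes were thinned to equal depth, and the EC interval (0.917 to 1.54) includes 1.

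*Tgfb2*, a ligand whose loss of function causes a human aortic aneurysm syndrome, had the opposite order, with SMCs highest and immune cells lowest in every library. The SMC level was 172 CPM in WT (168 to 175), 255 in mgR (251 to 259) and 210.1 in mgR-LOS (207 to 213). A *Tgfb2* UMI was seen in 73.2%, 83.3% and 65.8% of SMC barcodes, whose median depth was 14322.5, 14912 and 8577 UMIs. With barcodes thinned to equal depth these shares were 13.7%, 20.4% and 17.0% in WT, mgR and mgR-LOS. The mgR library was the highest, at 1.48 times WT (1.44 to 1.53), and mgR-LOS stood at 0.824 of mgR (0.805 to 0.843). Fibroblasts as a whole had 100.5, 92.8 and 88.1 CPM in WT, mgR and mgR-LOS, a much narrower spread than SMCs. Their expression ranges differed in direction. In the same order of libraries, *Pi16*-rich fibroblasts had 104, 64.1 and 110 CPM and *Gdf10*/*Hsd11b1*-rich fibroblasts 58.8, 79.7 and 55.1 CPM. *Comp*/*Chad*/*Fmod*-rich fibroblasts had 77.0, 102 and 143 CPM, and those of none of the panels 112, 115 and 81.9 CPM. ECs had 83.9, 88.1 and 58.3 CPM, and their intervals overlapped those of fibroblasts in WT and mgR. Among ECs, the luminal range (by *Clu*, *Vcam1*, *Edn1* and *Cytl1*) held the most, with 115, 151 and 85.0 CPM against 60.7, 57.1 and 40.9 CPM in the lymphatic range. In luminal ECs mgR-LOS was at 0.561 of mgR (0.400 to 0.779), and 5 barcodes carried 73.5%, 46.6% and 61.8% of the luminal *Tgfb2* UMIs in WT, mgR and mgR-LOS.

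*Tgfb3* was the only ligand for which fibroblasts and SMCs changed places. In WT and mgR-LOS the fibroblast level (104 and 92.8 CPM) was above the SMC level (60.7 and 73.0 CPM), and in mgR the SMC level of 108 CPM (105 to 111) was above the fibroblast level of 74.2 CPM (71.2 to 77.4). Relative to WT, mgR was at 1.78 (1.70 to 1.86) in SMCs and 0.715 (0.670 to 0.764) in fibroblasts. Relative to mgR, mgR-LOS was at 0.678 (0.653 to 0.704) in SMCs and 1.3 (1.18 to 1.33) in fibroblasts. Both pairs of intervals lie on opposite sides of 1. ECs carried 20.1, 30.8 and 23.9 CPM, from 17, 56 and 32 UMIs, and most of it came from the lymphatic range, which had 72.9, 67.6 and 75.0 CPM against 7.03, 6.42 and 6.18 CPM in luminal ECs. Lymphatic ECs were 21 of 108, 73 of 218 and 37 of 178 EC barcodes. For mgR over WT the EC ratio was 1.54 (0.880 to 2.82). It was 0.912 (0.178 to 5.88) within luminal ECs, from 5 mgR and 3 WT UMIs. Within lymphatic ECs it was 0.928 (0.483 to 1.93), from 45 mgR and 12 WT UMIs. All these intervals include 1, and the part of the make-up in the EC ratio was not tested.

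**Figure D1:**
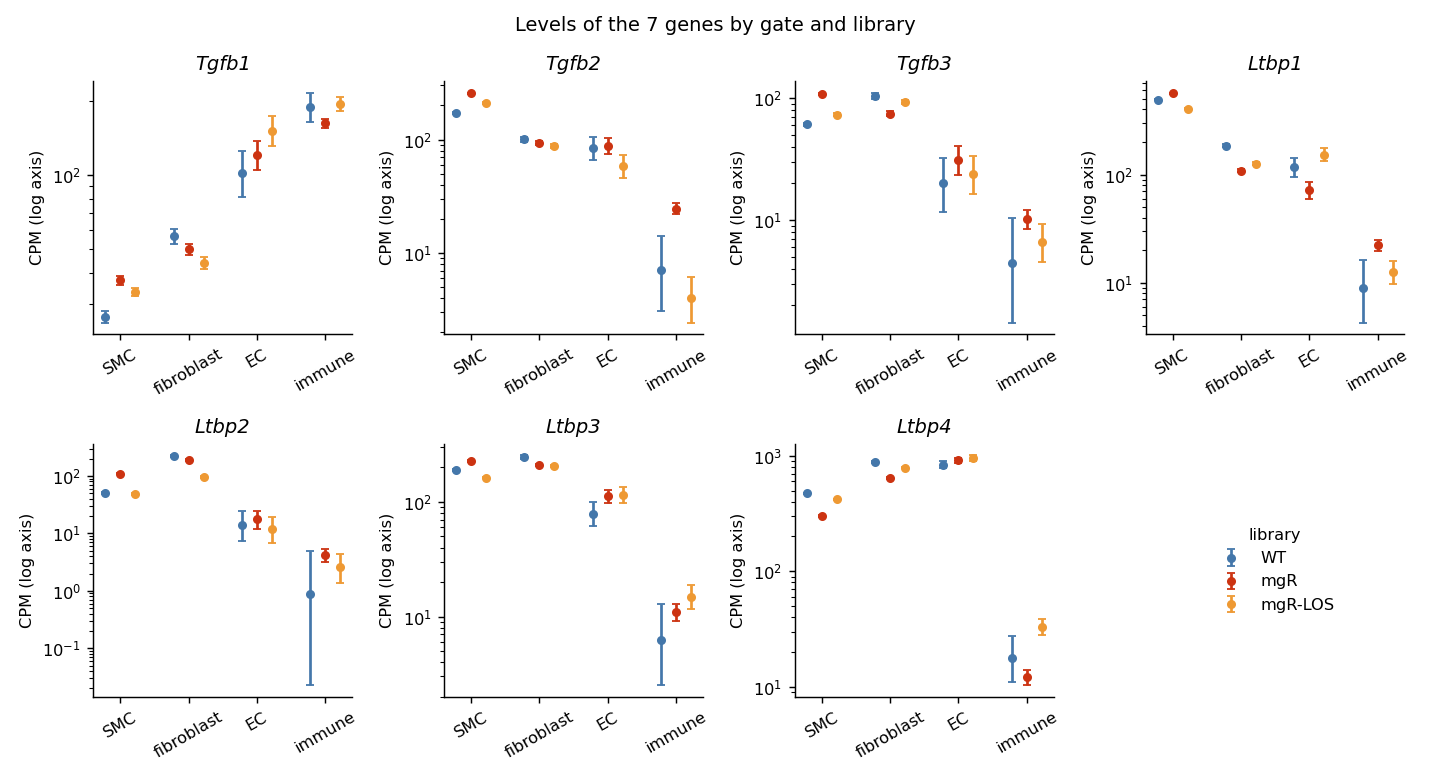
Level of each gene in CPM (log axis) in the SMC, fibroblast, EC and immune gates of the WT (blue), mgR (red) and mgR-LOS (orange) libraries; points are 1 library each and bars are exact 95% Poisson intervals. *Tgfb1* climbs from SMCs to immune cells, from 26.6 to 189 CPM in WT, and every other gene is lowest in immune cells. Axes differ between panels, and levels are not divided by length, so heights should not be compared between genes.

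*Ltbp1*, the founding carrier of latent TGF-β, was highest in SMCs, with 493 CPM in WT (487 to 499), 567 in mgR (560.5 to 574) and 406 in mgR-LOS (401 to 410.4). In fibroblasts the order of the mutant and WT was the reverse, with 185 CPM in WT (178 to 192), 109 in mgR (105 to 113) and 126 in mgR-LOS (122 to 131). For mgR over WT the SMC ratio was 1.15 (1.13 to 1.17) and the fibroblast ratio 0.588 (0.558 to 0.619). The lower fibroblast level was present in each of 4 expression ranges, among them 292 CPM in WT and 188 CPM in mgR in *Pi16*-rich fibroblasts and 179 and 80.8 CPM in *Gdf10*/*Hsd11b1*-rich fibroblasts. In ECs mgR was the lowest library, at 71.6 CPM (59.8 to 85.0), below WT at 117 (95.03 to 142) and mgR-LOS at 153 (133 to 176). The EC ratio of mgR over WT was 0.612 (0.468 to 0.804), but 0.857 with each barcode weighted equally. In WT the 5 richest of 108 EC barcodes carried 40.4% of the 99 UMIs. Within luminal (0.876, 0.564 to 1.38) and lymphatic ECs (0.618, 0.371 to 1.06) the intervals of mgR over WT include 1. Luminal ECs held 82.0, 71.8 and 213 CPM, and mgR-LOS was at 2.97 times mgR there (2.16 to 4.12), whereas in lymphatic ECs mgR-LOS was at 0.537 of mgR (0.269 to 0.9954). The 5 richest of the 178 mgR-LOS EC barcodes carried 27.3% of the 205 UMIs, and with each barcode weighted equally the EC ratio of mgR-LOS over mgR was 1.48 in place of 2.14 (1.71 to 2.69).

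*Ltbp2*, a fibrillin-1 binding member that does not carry ligand, showed the largest SMC ratios of the 7 genes. Its SMC level was 49.8 CPM in WT (47.9 to 51.7), 110.1 in mgR (107 to 113) and 48.0 in mgR-LOS (46.4 to 49.6). The mgR library was at 2.21 times WT (2.11 to 2.32), mgR-LOS at 0.436 of mgR (0.418 to 0.455), and mgR-LOS at 0.964 of WT (0.916 to 1.01). Fibroblasts were the highest gate in every library but did not share this pattern, with 221 (214 to 229), 189 (184 to 194) and 94.9 CPM (91.1 to 98.8). Losartan fibroblasts were at 0.501 of mgR (0.478 to 0.526) and 0.429 of WT (0.407 to 0.452). Within fibroblasts the *Comp*/*Chad*/*Fmod*-rich range held the most, with 507, 380.2 and 399 CPM, and *Pi16*-rich fibroblasts the least, with 88.1, 68.0 and 47.0 CPM. The *Comp*/*Chad*/*Fmod*-rich range was 15.9% of WT and 6.32% of mgR fibroblasts, and the *Gdf10*/*Hsd11b1*-rich range 6.25% and 27.0%. With the ranges held at a fixed make-up the fibroblast ratio of mgR over WT was 1.01 for both *Ltbp2* and *Tgfb2*, in place of 0.855 and 0.924, and fibroblasts of none of the panels had 1.37 times the WT level of *Ltbp2* (1.28 to 1.46). For *Ltbp2* the ratio of mgR-LOS over mgR was 1.05 (0.945 to 1.17) in *Comp*/*Chad*/*Fmod*-rich and 0.690 (0.590 to 0.806) in *Pi16*-rich fibroblasts. It was 0.457 (0.406 to 0.514) in *Gdf10*/*Hsd11b1*-rich fibroblasts and 0.365 (0.341 to 0.392) in those of none of the panels. Barcodes with a mixed or weak panel score, left out of every gate, were 1.44%, 4.88% and 3.26% of kept barcodes in WT, mgR and mgR-LOS. In the same order they held 2.19%, 7.98% and 6.51% of the *Ltbp2* UMIs. Their *Ltbp2* level was 169 (141 to 201), 256 (240 to 272) and 122 CPM (111 to 135), against 85.4, 123 and 58.5 CPM over all kept barcodes.

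*Ltbp3*, which like *Ltbp1* carries all ligands, was close in SMCs and fibroblasts. SMCs had 189, 229 and 163 CPM and fibroblasts 247, 209 and 206 CPM in WT, mgR and mgR-LOS. As for *Tgfb3*, SMCs were above fibroblasts in mgR and below them in WT and mgR-LOS, with separate intervals. The SMC ratio was 1.21 (1.18 to 1.245) for mgR over WT and 0.712 (0.694 to 0.730) for mgR-LOS over mgR. ECs had 79.1, 112 and 115 CPM.

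*Ltbp4*, the elastic fiber member, went the other way from its relatives in SMCs. Its SMC level was lowest in mgR, 301 CPM (296 to 306), against 474 in WT (468 to 480) and 421 in mgR-LOS (416 to 426). The mgR library was at 0.636 of WT (0.623 to 0.649), and mgR-LOS was at 1.40 times mgR (1.37 to 1.43) and 0.889 of WT (0.875 to 0.904). Fibroblasts had the same order, 883 (868 to 899), 641 (632 to 651) and 789 CPM (778 to 800.2) in WT, mgR and mgR-LOS. ECs did not, with 840 (779 to 904), 915 (871 to 960) and 958 CPM (906 to 1012) and an mgR over WT interval that includes 1 (0.997 to 1.19). Lymphatic ECs carried the highest WT level, 1439 CPM, against 834 CPM in luminal ECs.

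**Figure D2:**
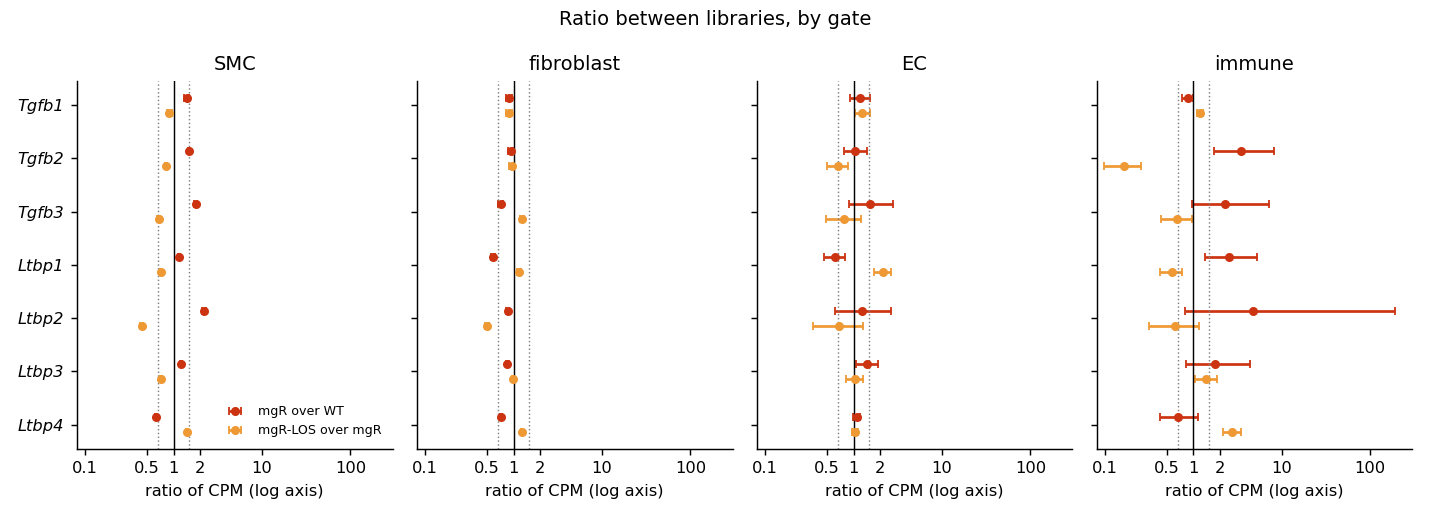
Ratio of CPM between libraries (log axis) for each gene in each gate, with exact 95% conditional binomial intervals; red, mgR over WT, and orange, mgR-LOS over mgR. The solid line is a ratio of 1 and the dotted lines a 1.5-fold difference either way. In SMCs *Ltbp2* (2.21 and 0.436) and *Tgfb3* (1.78 and 0.678) lie farthest to either side and *Ltbp4* (0.636 and 1.40) has the opposite order, whereas EC and immune intervals are wide. Both ratios use the mgR library, so chance error in it moves them in opposite directions.

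A gene was called apart when its ratio was at least 1.5-fold in either direction and the libraries held at least 20 UMIs together. In SMCs 2 of the 7 genes were higher in mgR than in WT (*Tgfb3* and *Ltbp2*) and 1 was lower (*Ltbp4*), and 22% of the 14233 genes compared were apart by this rule, 12.9% higher and 9.15% lower. The median ratio of the 7 was 1.41 and that of all genes 0.992. Between mgR-LOS and mgR 1 was lower with losartan (*Ltbp2*) and none was higher, with 18.5% of all genes apart (12.4% higher and 6.17% lower) and medians of 0.716 and 1.05. In fibroblasts 1 was lower for mgR over WT (*Ltbp1*), with 20.8% of all genes apart, 10.8% higher and 9.92% lower. For mgR-LOS over mgR 1 was lower (*Ltbp2*), with 15.3% of all genes apart, 8.32% higher and 6.98% lower. ECs had 1 higher (*Tgfb3*) and 1 lower (*Ltbp1*) for mgR over WT, with 21.7% of all genes apart, 14.1% higher and 7.67% lower. With losartan *Ltbp1* was higher and *Tgfb2* lower than in mgR ECs, with 20.6% of all genes apart, 10% higher and 10.6% lower. In these gates 1 to 3 of the 7 genes were apart, and beside the 15.3% to 22% of all genes this count is not read as a result about the family.

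With losartan set against WT, for which the mgR library was not used, none of the 7 genes was 1.5-fold apart in SMCs. The ligands stood at 1.26 (*Tgfb1*), 1.22 (*Tgfb2*) and 1.20 (*Tgfb3*) times WT, with all intervals above 1, and *Ltbp1*, *Ltbp3* and *Ltbp4* at 0.823, 0.863 and 0.889 of WT, with all intervals below 1. In the background of all genes 22.4% were apart. *Fbn1* in the same SMCs stood at 0.323 of WT in mgR and 0.279 in mgR-LOS, and so remained low with losartan.

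SMCs were divided by small gene panels into ranges, which are parts of a continuum and not cell types. The ranges held very different shares of the libraries. *Rbp4*/*Wif1*-rich SMCs were 952 barcodes in WT, 35 in mgR and 186 in mgR-LOS, *Sost*/*Acan*/*Susd5*-rich SMCs 1007, 2122 and 3107, and *Vcam1*/*Spp1*-rich SMCs 19, 231 and 117. *Ltbp2* was higher in mgR than in WT in each of the 5 ranges with at least 20 barcodes in both, at ratios of 1.24 (*Rgs5*-rich), 1.80 (*Sost*/*Acan*/*Susd5*-rich), 2.24 (none of the panels), 2.93 (*Tnnt2*/*Tcap*-rich) and 3.24 (*Rbp4*/*Wif1*-rich), and the interval of the first includes 1 (0.778 to 1.99). The highest *Ltbp2* level was in *Vcam1*/*Spp1*-rich SMCs, with 112 CPM in WT, 229 CPM in mgR and 134 CPM in mgR-LOS. This range was picked by *Vcam1*, *Spp1*, *Timp1* and *Lum*, and *Lum* is also in the second fibroblast panel. The part of fibroblast RNA in these values was not tested. The WT value rests on 30 UMIs, of which 5 barcodes carried 73.3%. With the ranges held at a fixed make-up, that of WT, mgR stood relative to WT at 2.37 for *Ltbp2*, 1.60 for *Tgfb3* and 1.43 for *Tgfb1*. These values have no interval. The *Rbp4*/*Wif1*-rich range, 25.6% of WT SMC barcodes, enters them through 35 mgR barcodes. Those barcodes held 54 *Ltbp2*, 30 *Tgfb3* and 17 *Tgfb1* UMIs, and 5 of them carried 64.8%, 53.3% and 70.6% of these. *Tgfb2* stood at 1.33 and *Ltbp4* at 0.672. The *Tgfb1* ratio was 1.26 in *Sost*/*Acan*/*Susd5*-rich SMCs, 1.23 in those of none of the panels and 1.18 in *Tnnt2*/*Tcap*-rich SMCs. It was 2.05 in *Rbp4*/*Wif1*-rich SMCs, from 17 mgR UMIs, and 1.95 in *Rgs5*-rich SMCs, from 32 mgR and 13 WT UMIs. The *Tgfb1* intervals of the *Tnnt2*/*Tcap*-rich and *Rgs5*-rich ranges include 1. *Vcam1*/*Spp1*-rich SMCs, with 19 WT barcodes, were left out of the fixed make-up.

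*Tgfb2* and *Ltbp4* differed by range. *Tgfb2* was at 1.69 times WT (1.61 to 1.77) in *Sost*/*Acan*/*Susd5*-rich SMCs, from 156 to 263 CPM, and at 1.254 times (1.12 to 1.41) in *Tnnt2*/*Tcap*-rich SMCs, and the intervals included 1 in *Rbp4*/*Wif1*-rich (0.974, 0.737 to 1.26) and *Rgs5*-rich SMCs (0.903, 0.684 to 1.19). *Ltbp4* was at 0.544 of WT (0.527 to 0.561) in *Sost*/*Acan*/*Susd5*-rich SMCs, from 501 to 273 CPM, and close between the libraries in *Tnnt2*/*Tcap*-rich SMCs, with 465, 475 and 482 CPM in WT, mgR and mgR-LOS. *Tgfb3* was highest in *Rgs5*-rich SMCs of mgR, at 149 CPM against 46.1 CPM in WT, a ratio of 3.24 (2.03 to 5.35) over 66 and 46 barcodes. These levels rest on 94 mgR and 23 WT UMIs, of which 5 barcodes carried 48.9% and 43.5%. For mgR-LOS over mgR, the ratios of *Ltbp2*, *Ltbp1*, *Ltbp3* and *Tgfb3* were below 1 and those of *Ltbp4* above 1 in all 6 ranges compared. Only for *Ltbp2* did every interval exclude 1. In *Rgs5*-rich SMCs the intervals of *Ltbp1* (0.857 to 1.14), *Ltbp3* and *Ltbp4* included 1. So did those of *Ltbp3* and *Tgfb3* in *Rbp4*/*Wif1*-rich and *Vcam1*/*Spp1*-rich SMCs, and of *Ltbp4* in *Tnnt2*/*Tcap*-rich SMCs (0.956 to 1.08).

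**Figure D3:**
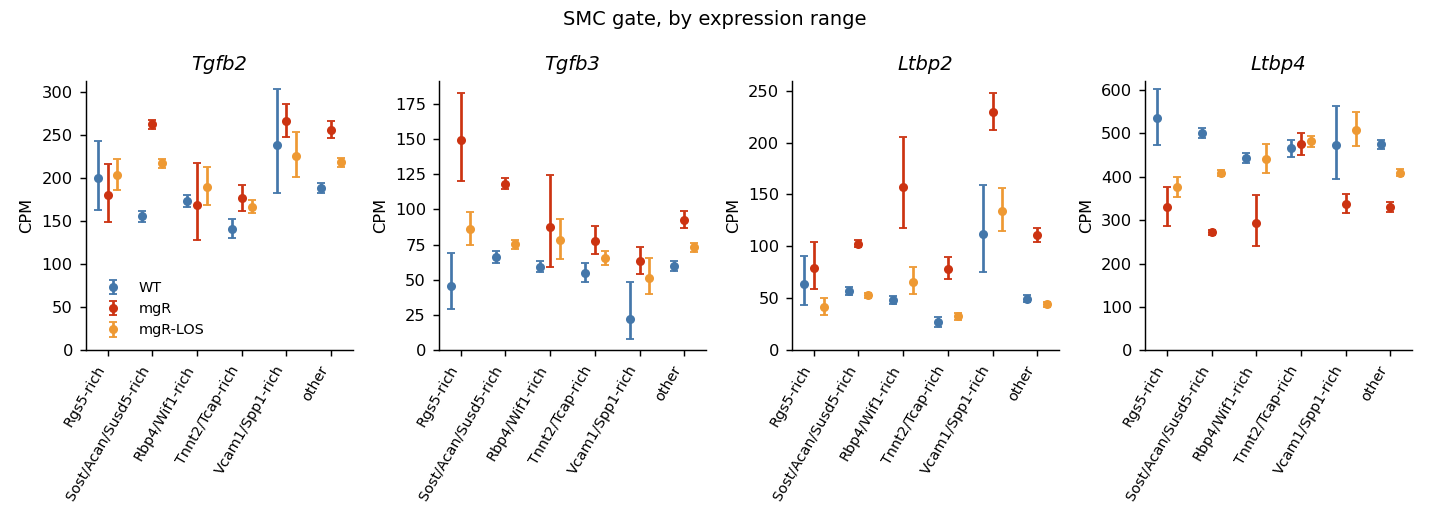
Level in CPM of *Tgfb2*, *Tgfb3*, *Ltbp2* and *Ltbp4* in expression ranges of the SMC gate, in WT (blue), mgR (red) and mgR-LOS (orange); bars are exact 95% Poisson intervals. *Ltbp2* in mgR lies above the other libraries in each range, and *Ltbp4* is close between the libraries in *Tnnt2*/*Tcap*-rich SMCs (465, 475 and 482 CPM).

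The immune gate took 1.60% of all UMIs in WT, 13.4% in mgR and 4.52% in mgR-LOS, and the source of *Tgfb1* differed between libraries more than its level in any gate. Immune cells held 8.19% of the *Tgfb1* UMIs in WT (7.16% to 9.31%), 35.7% in mgR (34.5% to 36.9%) and 18.9% in mgR-LOS (17.8% to 19.96%), and SMCs held 53.8%, 31.3% and 49.0%. Over all kept barcodes *Tgfb1* was at 37.0, 60.8 and 46.5 CPM, although in immune cells themselves mgR was not higher than WT (0.859, 0.746 to 0.994). *Ltbp1* stayed an SMC transcript, with 89.4%, 86.5% and 87.8% of its UMIs there, and so did *Tgfb2*, with 84.3%, 76.9% and 84.7%. The SMC share of *Ltbp4* was 63.5% in WT, 40.1% in mgR and 57.3% in mgR-LOS. More cells of a type, cells that survive dissociation better and more RNA per cell cannot be told apart from shares of a library.

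**Figure D4:**
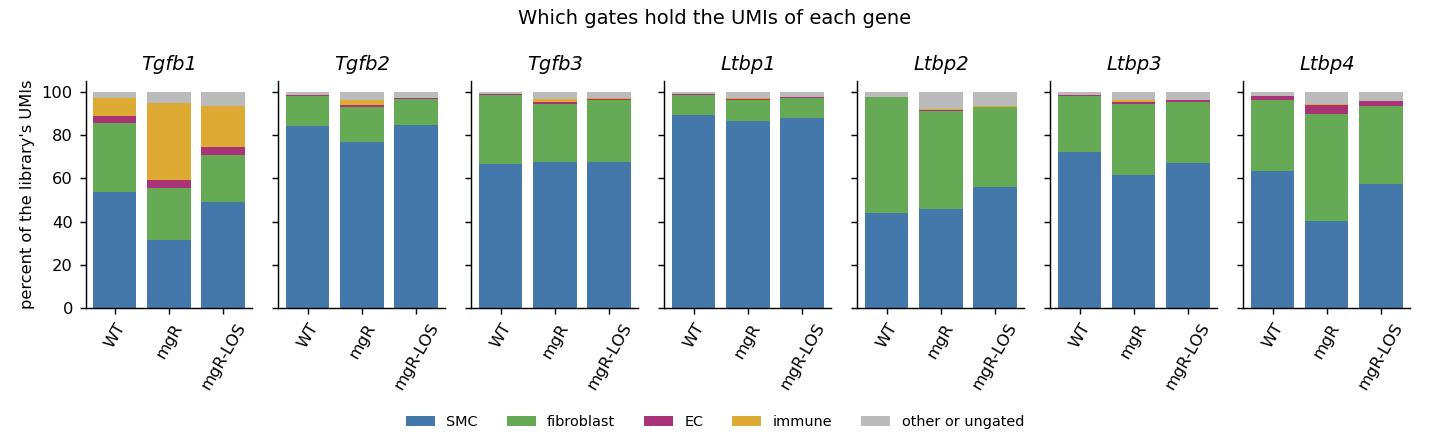
Share of each gene's UMIs found in each gate, in percent of the library's kept UMIs of that gene; bars are 1 library each and gray is barcodes of other gates or of none. Immune cells hold 8.19%, 35.7% and 18.9% of *Tgfb1* in WT, mgR and mgR-LOS and at most 1.95% of any other gene.

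The other 6 genes were low in immune cells, at 0.89 to 32.8 CPM. They stood at 1.79% to 9.62% of their own SMC level, and the second SMC panel at 2.37% to 3.11% of its own. The part of RNA from other cells in these values was not tested. By the rule above 5 of the 7 genes were higher in mgR than in WT (*Tgfb2*, *Tgfb3*, *Ltbp1*, *Ltbp2* and *Ltbp3*, with 26.8% of all genes apart, 16.7% higher and 10.1% lower). For mgR-LOS over mgR 4 were lower and 1 was higher (*Ltbp4*, from 12.04 to 32.8 CPM), with 18.6% of all genes apart, 9.8% higher and 8.82% lower. The WT values rest on 1 to 20 UMIs each, so these 5 reached the minimum of UMIs through the mgR library, and the intervals of *Tgfb3* (0.955 to 7.15), *Ltbp2* (0.810 to 189) and *Ltbp3* (0.823 to 4.404) for mgR over WT include 1. *Tgfb2* had 7.12 CPM in WT (3.08 to 14.04), 24.5 in mgR (21.95 to 27.3) and 3.98 in mgR-LOS (2.43 to 6.15), and *Ltbp1* 8.90, 22.2 and 12.5 CPM.

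In mgR these *Tgfb2* transcripts were not spread over the gate. Of 1629 immune barcodes 27 carried 3 or more *Tgfb2* UMIs, and the highest had 33, whereas no WT and 1 mgR-LOS immune barcode reached 3. Barcodes that carried at least 3 of *Gata6*, *Alox15*, *Prg4*, *Selp*, *Icam2* and *F5* were then counted. These genes are known from macrophages of serous cavities and were picked after the values had been seen. Such barcodes numbered 39 in mgR (2.39%, 1.71% to 3.26%), 1 of 127 in WT (0.787%, 0.0199% to 4.31%) and 2 of 697 in mgR-LOS (0.287%, 0.0348% to 1.03%). The WT interval includes the mgR share, so the 127 WT barcodes cannot show whether they are rarer in WT. The 39 mgR barcodes held 247 of the 328 *Tgfb2* UMIs and had a level of 618 CPM (543 to 700), above the 255 CPM of mgR SMCs, and 31 of them carried a *Tgfb2* UMI. The other 1590 mgR immune barcodes had 6.24 CPM (4.96 to 7.76), which is 0.994 of WT once such barcodes were left out of both, a value that follows from how the genes were picked. *Ltbp1* was at 323 CPM (269 to 383) in the 39 and 13.0 CPM (11.1 to 15.1) in the rest. The macrophage genes *Csf1r* and *Adgre1* stood at 518 and 863 CPM in them, the SMC gene *Acta2* at 578 CPM against 542 CPM in the rest, and the fibroblast gene *Dcn* at 72.5 against 59.1 CPM. *Tgfb3*, *Ltbp2*, *Ltbp3* and *Ltbp4* had 1 to 6 UMIs each in them.

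Lists of genes that anchor, activate, receive, trap or answer TGF-β were counted in the same way, and they too were chosen with earlier results of these data known. None of the 5 receptor genes was apart in SMCs or fibroblasts in either comparison, with median ratios of 0.880 to 1.07. Of all genes 15.3% to 22% were apart in these comparisons, so with 5 genes this count is not read as a result about the receptors. Of 11 feedback and target genes, 6 were higher in mgR SMCs than in WT, with none lower and a median of 1.51, against 12.9% of all genes higher. Among them were *Smad7*, the inhibitory SMAD (1.61), and *Postn*, periostin (1.51). With losartan over mgR 4 of the 11 were lower in SMCs, among them *Ccn2*, connective tissue growth factor (0.305, from 2198 to 670 CPM), *Pmepa1* (0.644) and *Postn* (0.648), and *Tgfbi* was higher, against 6.17% of all genes lower. Fibroblasts of mgR had *Smad7* (1.71) and *Smad6* higher and *Tgfbi* (0.657) lower than WT. In fibroblasts mgR-LOS had *Ccn2* (0.402) lower and *Tgfbi* (1.95) higher than mgR.

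Of the 17 docking and activator genes, 16 reached the minimum of UMIs in SMCs for mgR over WT, with 6 higher and 3 lower, beside 12.9% and 9.15% of all genes. *Thbs1*, thrombospondin-1, an activator of latent TGF-β, had the largest ratio of those above 50 CPM, 11.3, from 18.3 to 207 CPM, and was at 81.0 CPM with losartan (0.391 of mgR). *Mmp2* (2.10) and *Plat* (1.94), both proteases, were higher and *Itgb3* (0.620), an integrin subunit, was lower, and *Plat* was at 0.587 with losartan. In mgR fibroblasts *Mmp14* (1.80), which activates pro-MMP2, and *Lrrc32* (2.01), which holds latent TGF-β at the cell surface, were higher, and with losartan *Itgb5* (0.585) and *Thbs1* (0.645) were lower than in mgR.

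The anchors are genes of the matrix to which the binding proteins attach. Of 15 anchors, 14 could be compared in SMCs for mgR over WT, and 3 were higher and 3 lower, beside 12.9% and 9.15% of all genes. *Fn1*, fibronectin, was at 3.97 times WT in SMCs, from 462 to 1834 CPM, and at 553 CPM with losartan (0.301 of mgR). The microfibril-associated *Mfap5* (0.361) and *Mfap4* (0.430) were lower beside *Fbn1* (0.323). In mgR-LOS *Eln*, elastin (0.535), and *Fbln5*, fibulin-5, a partner of LTBP-4 (0.629), were lower than in mgR SMCs. Fibroblasts of mgR had *Fn1* (2.39), *Emilin2* (2.55), *Emilin1* (1.67) and *Efemp2*, fibulin-4 (1.86), higher and *Fbn1* (0.435) and *Mfap4* (0.481) lower, and with losartan *Fn1* (0.489), *Eln* (0.479) and *Adamtsl2* (0.508), whose product binds LTBP-1, were lower than in mgR.

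Of the 9 traps and inhibitors, 8 could be compared in SMCs for mgR over WT, and 4 were higher and 2 lower, beside 12.9% and 9.15% of all genes. *Bgn*, the proteoglycan biglycan (1.55), was among the higher, and *Htra3*, a protease (0.341), and *Bambi*, a decoy receptor (0.659), were lower. With losartan *Dcn*, decorin, was at 1.95 times mgR in SMCs, and *Htra1* was at 0.599. The second fibroblast panel went the other way from *Dcn*, at 25.2% of its fibroblast level in mgR and 17.2% in mgR-LOS SMCs. Whether its RNA in SMC barcodes came from fibroblasts or from SMCs was not tested. In mgR fibroblasts *Fst*, follistatin (2.81), was higher and *Htra1* (0.511), *Fmod*, fibromodulin (0.519), and *Bambi* (0.561) were lower, and *Fst* was at 0.563 of mgR with losartan.

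**Figure D5:**
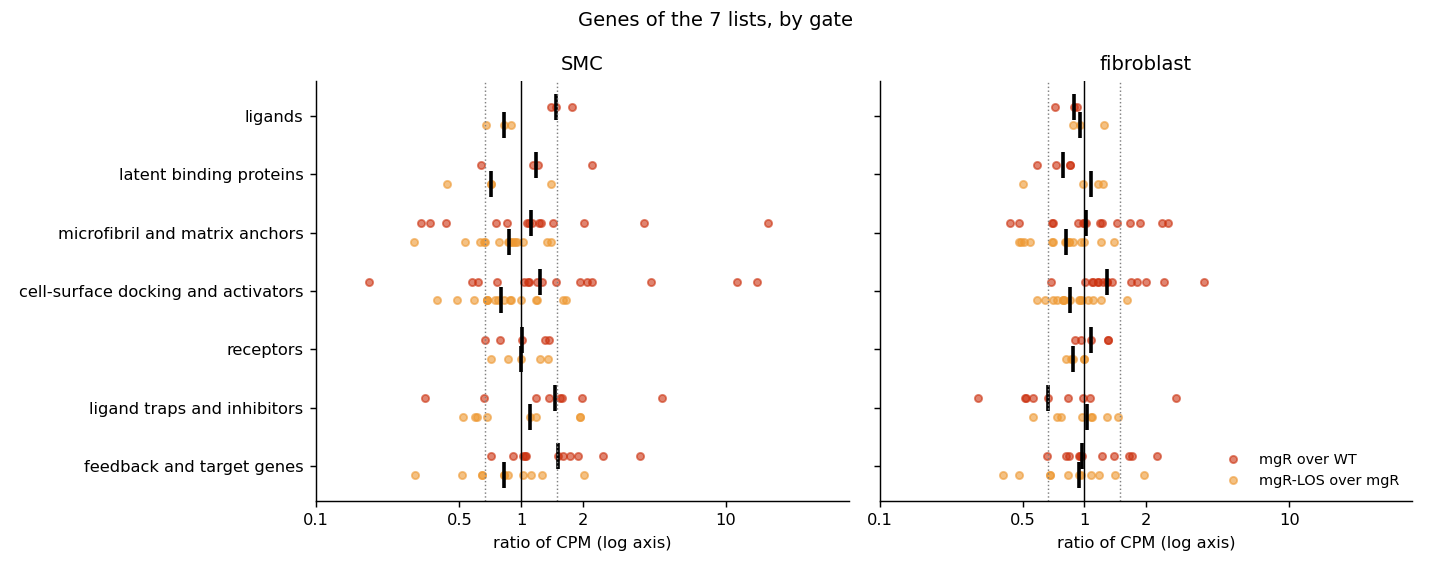
Ratio of CPM (log axis) of each gene of 7 lists in the SMC and fibroblast gates, red for mgR over WT and orange for mgR-LOS over mgR; the black bar is the median of a list and dotted lines mark a 1.5-fold difference. In SMCs the feedback and target genes have a median of 1.51 for mgR over WT and the receptors 1.01.

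Over the 12 populations (4 gates in 3 libraries), the log2(CPM + 1) levels of 8857 genes were compared with each member. The nearest to *Tgfb1* were *Sipa1* (Pearson's r = 0.990), *Lfng* and *Stard8*, to *Tgfb2* *Hmgn3* (0.978), *Emc10* and *Ndufa11*, and to *Tgfb3* *Cd109* (0.987), *Sparc* and *Lhfp*. The nearest to *Ltbp1* were *Mfge8* (0.983), *Fam13c* and *Pls3*, to *Ltbp2* *Col5a1* (0.984), *Slc7a6* and *Cd109*, to *Ltbp3* *P3h4* (0.994), *Tmem263* and *Npr2*, and to *Ltbp4* *Ro60* (0.992), *Meis2* and *Pard3*. *Cd109*, a TGF-β co-receptor and inhibitor, thus appeared for both *Tgfb3* and *Ltbp2*. The populations share libraries, and most of each r comes from the difference between gates, so these values describe likeness of pattern only.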

How the data were processed

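The deposited values are raw UMI counts, which the authors made from 10x 3′ libraries on GRCm38 and did not normalize. Matrix headers name Cell Ranger 5.0.1 for WT and mgR and 6.0.1 for mgR-LOS, whereas the submitters' processing notes name 6.0.1. Barcodes were kept by the limits of the study's methods, between 600 and 5000 genes with mitochondrial UMIs no higher than 10%. WT, mgR and mgR-LOS are pools of 3, 3 and 4 mice.

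No deposited annotation was used. A barcode's panel score was the mean over a panel of log(1 + UMIs per 10000), each gene scaled by its mean in the 50 highest barcodes. The highest of 7 panels gave the gate where the score was at least 0.3 and led the next by at least 0.1, which also left out mixed barcodes; no doublet caller was run. Ranges within a gate used panels in the same way. For mgR over WT, a fixed make-up weighted each range by its share of the WT UMIs, without an interval. UMIs were summed per gate and library and scaled to CPM. Intervals are exact Poisson (sums), exact conditional binomial (ratios) and Clopper-Pearson (shares). Shares at equal depth used barcodes thinned to 1000 UMIs. The members, panels and lists were chosen with earlier results of these data known. Genes named were the 7, *Fbn1*, listed genes at least 1.5-fold apart in SMCs or fibroblasts with at least 50 CPM in either library, the 3 most alike genes per member, and panel genes. *Gata6*, *Alox15*, *Prg4*, *Selp*, *Icam2*, *F5*, *Smad6* in fibroblasts, *Tgfbi* in SMCs and the overlapping *Ttll5* were named outside that rule, after their values were seen. Some listed genes that met the rule are not reported here. The ratio code was tested on simulated data. Python 3.11.15, numpy 2.4.6, scipy 1.17.1, pandas 2.3.3 and matplotlib 3.10.9 were used. Alternatives covered filters, gate rules, second panels, scaling, weighting, thinning, ranges left out and the fold limit.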

Additional observations from a re-analysis of the deposited data

Results flagged for a closer look

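Genes are given here whose ratio lay wholly above 1 in one gate and wholly below 1 in another, at least 1.5-fold from each other, with at least 100 UMIs in each library. The values are log2 ratios, and the difference between the gates was not tested in any of these. For mgR over WT, *Tgfb1* was at 0.49 in SMCs, -0.18 in fibroblasts and -0.22 in immune cells, *Tgfb2* at 0.57 in SMCs and -0.11 in fibroblasts, and *Tgfb3* at 0.83 and -0.48. *Ltbp1* was at 0.20 in SMCs and -0.77 in fibroblasts and *Ltbp2* at 1.14 and -0.23. With the ranges of the fibroblast gate at a fixed make-up, mgR over WT was at a linear ratio of 1.01 for *Tgfb2* and *Ltbp2* and 0.979 for *Tgfb1*. These values have no interval and lie close to 1, so the lower fibroblast levels of these genes in mgR were not kept as a clear difference. For mgR-LOS over mgR, *Tgfb3* was at -0.56 in SMCs and 0.32 in fibroblasts, and *Ltbp1* at -0.48 in SMCs, 0.22 in fibroblasts and 1.10 in ECs.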

How the results depend on the processing

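No paired analysis was possible because each condition was 1 library. The SMC ratios of all 7 genes kept their direction under every alternative; *Ltbp2* mgR over WT ranged from 1.98 to 2.78, *Tgfb3* from 1.55 to 1.84 and *Ltbp4* from 0.621 to 0.677. In SMCs 3 genes were apart for mgR over WT, 5 at the lowest fold tried, 1 at a fold of 2, 2 with equal weights (*Ltbp4* at 0.668) and 4 at 5% mitochondrial UMIs or without mixed-score barcodes. For mgR-LOS over mgR the count of 1 became 2 with second panels, equal weights, thinning or without *Rgs5*-rich and *Vcam1*/*Spp1*-rich barcodes, and 5 at the lowest fold. In fibroblasts the mgR over WT count of 1 became 2 with thinning, 3 at the lowest fold and 0 at 2, and the mgR-LOS over mgR count became 2 at the lowest fold and 0 at 2. In ECs the mgR over WT count of 2 became 1 without a maximum of genes or with equal weights, and 0 at 5% mitochondrial UMIs, with second panels or at 2. The EC mgR-LOS over mgR count of 2 became 1 at 5% mitochondrial UMIs, with second panels, without mitochondrial, ribosomal protein and globin genes, with equal weights or at 2, and 5 at the lowest fold. In immune cells the mgR over WT count of 5 became 2 with thinning. The mgR-LOS over mgR count of 5 became 3 at 5% mitochondrial UMIs, without a lead or with equal weights, and 2 with second panels or at 2. In immune cells thinning turned the mgR over WT ratios of *Tgfb2* (0.988), *Ltbp1* (0.806), *Ltbp2* (0.546) and *Ltbp4* (1.87), each on few UMIs. Immune *Tgfb2* was at 0.994 without the barcodes of the serous cavity genes, an alternative chosen after seeing the data, whose value follows from the choice. In ECs thinning moved the mgR over WT ratio of *Tgfb2* from 1.05 to 3.24 and that of *Ltbp2* from 1.24 to 0. The cause was not tested for any of these. EC and immune values rest on few barcodes, down to 108 and 127 in WT.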

Other observations

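In the small mesothelial gate (11, 31 and 20 barcodes in WT, mgR and mgR-LOS) *Tgfb2* was above the SMC level in WT (331 CPM, 232 to 458) and mgR-LOS (306, 225 to 407) and below it in mgR (161, 123 to 206), and *Ltbp4* was at 901, 551 and 664 CPM in WT, mgR and mgR-LOS. *Ltbp1* and *Ltbp2* were at most 48.5 and 30.6 CPM there. Mesothelial cells line the serous cavity that borders the aorta. *Tgfb1* was at 7.65 to 13.0 CPM there, from 1 to 3 UMIs in each library.

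Among immune cells *Tgfb1* was highest in monocyte-range barcodes in mgR and mgR-LOS, at 232 CPM over 157 mgR and 276 CPM over 18 mgR-LOS barcodes, against 103 and 129 CPM in the T cell range and, in mgR, 108 CPM in the B cell range. In WT the T cell range was at 223 CPM (130.1 to 358) over 14 barcodes. The macrophage range had 179, 164 and 200.3 CPM in WT, mgR and mgR-LOS.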
